A study of Mus musculus with 4 samples.

Results

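Cytotoxic granule genes were examined in gBT-I cells, CD8+ T cells whose transgenic receptor recognises a glycoprotein B peptide of herpes simplex virus. The 10 genes, taken by name from a table of 24062 genes, encode 4 granzymes (Gzma, Gzmb, Gzmk and Gzmm), perforin (Prf1), the granule proteins serglycin (Srgn) and NKG7 (Nkg7), the protease inhibitors Serpinb9 and Serpinb6b, and the receptor CRTAM (Crtam). The genes were chosen with earlier results of these data known. All 10 passed the filter on low counts and are among the 11271 genes tested. Splenocytes of gBT-I transgenic donors, kept specific pathogen free, were stimulated in culture with the peptide and LPS, received an interleukin (IL-1 in the labels) on days 2 and 3, and were injected into a vein of C57BL/6 recipients on day 4. The recipients were either specific pathogen free (SPF, 2 libraries) or germ free (GF, 2 libraries), and the transferred cells were sorted from the spleen on day 7 after transfer. The donor cells of both groups thus came from SPF mice, and nothing in the labels tells if each library is 1 recipient or a pool. The spread behind the p-values is therefore that between libraries, which may be technical.

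A cytotoxic T cell kills by releasing preformed granules towards a bound target cell. Perforin forms pores in the target membrane, granzymes, a family of serine proteases, enter through them and cleave proteins that keep the target alive, and serglycin is the proteoglycan on which both are packed in the granule. Serpins in the cytosol of the killer cell trap granzymes that leak from its own granules. Effector CD8+ T cells are known to keep these messages at high levels after activation.

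The sequence just upstream of 4 of these genes is shown because the genes span the range from the most to the least abundant granzyme and include perforin. The windows are from RefSeq (GRCm38.p6, the assembly of mm10) and are written 5′ to 3′ on the strand of the gene. Those of Gzma (chr13:113100982-113101231, minus strand), Gzmb (chr14:56262335-56262584, minus strand) and Gzmk (chr13:113180966-113181215, minus strand) are the 250 bases before the start that RefSeq annotates. GENCODE, the source of the other gene positions here, starts Gzmb at 56262260 and Gzmk at 113225908. The Gzmk window thus lies within the gene as GENCODE gives it. That of Prf1 (chr10:61297586-61297750, plus strand) is the first 165 bases of such a window and stops before the most upstream start that RefSeq gives the gene. Capitals mark any match, on either strand, to TGANTCA (AP-1), TGTGGT (RUNX), TCACAC (T-box), AGGAAG (ETS), TGACGT (the CRE core) or TATAAA (the TATA box).
Gzma: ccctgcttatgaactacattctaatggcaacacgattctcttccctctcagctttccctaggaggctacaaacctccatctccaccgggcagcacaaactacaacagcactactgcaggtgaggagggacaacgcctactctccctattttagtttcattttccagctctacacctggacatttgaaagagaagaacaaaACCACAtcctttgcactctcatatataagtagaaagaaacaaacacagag
Gzmb: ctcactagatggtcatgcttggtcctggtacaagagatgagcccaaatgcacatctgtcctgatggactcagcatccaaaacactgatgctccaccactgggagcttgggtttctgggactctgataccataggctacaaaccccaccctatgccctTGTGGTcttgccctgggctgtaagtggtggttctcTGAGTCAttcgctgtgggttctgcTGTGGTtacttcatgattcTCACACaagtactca
Gzmk: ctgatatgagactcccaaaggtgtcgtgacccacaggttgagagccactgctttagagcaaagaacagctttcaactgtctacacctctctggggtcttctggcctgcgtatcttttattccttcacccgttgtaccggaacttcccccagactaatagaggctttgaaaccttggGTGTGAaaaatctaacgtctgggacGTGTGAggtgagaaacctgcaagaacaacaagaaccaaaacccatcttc
Prf1: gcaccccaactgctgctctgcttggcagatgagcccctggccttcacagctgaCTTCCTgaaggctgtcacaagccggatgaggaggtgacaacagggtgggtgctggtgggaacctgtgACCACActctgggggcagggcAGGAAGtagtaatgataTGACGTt

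The Gzmb window held 2 RUNX matches, 1 AP-1 match and 1 T-box match, the Gzma window 1 RUNX match, and the Gzmk window 2 T-box matches and none of the other motifs. Of the 9 members with an entry in the RefSeq table (all but Crtam), 6 had the RUNX letters within 250 bases of a listed start (Gzma, Gzmb, Gzmm, Nkg7, Prf1 and Srgn), compared with 14.0% of all 32851 windows of that length. T-box letters were found in 4 of the 9 and in 12.3% of all windows, ETS letters in 4 and 29.5%, CRE letters in 2 and 6.5%, AP-1 letters in 1 and 6.7%, and TATA letters in 1 and 12.4%. Gzmm and Srgn have more than 1 listed start, which gives them more sequence in which to match. No matches overlapped in the printed windows, and a match describes letters, not a bound site.

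Total counts ranged from 11544960 to 14431533 per library, so that 3 counts, the limit that a count of 0 allows, correspond to 0.21 to 0.26 CPM (counts scaled to library size). All 8 markers of CD8+ T cells were detected, with Thy1 the most abundant at 1228 to 1527 CPM. Libraries differed by more than sampling noise within both groups. Scaled to its degrees of freedom, chi-square reached 89.2 between the SPF replicates and 43.9 between the GF replicates. For SPF replicate 1 it came to 56.4 with GF replicate 1 and 144 with GF replicate 2. For SPF replicate 2 it came to 29.5 and 18.4, the latter the smallest of all pairs. By this measure SPF replicate 2 was closer to both GF libraries than to SPF replicate 1. Differences between libraries followed transcript length. As a description over 11202 tested genes, Spearman's rho between length and the log2 difference was 0.59 between the SPF replicates (2 minus 1), 0.53 between the GF replicates (2 minus 1) and 0.42 between the group means (GF minus SPF); genes are not independent.

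The granule genes ranged from some of the most abundant messages of these cells to one near the limit of the filter. Per transcript length, as reads scaled to transcript length and library size (RPKM) over the 4 libraries, Nkg7 had the highest mean level at 779.6 ± 186 (SD, n = 4) and Gzmk the lowest at 1.79 ± 0.622 (SD, n = 4). By CPM, Nkg7 ranked 179 and Srgn 308 among the 11271 tested genes, Gzma 694 and Gzmb 787, while Gzmk ranked 10116. After Nkg7 came Gzma at 284 ± 65.5, Srgn at 279 ± 98.4 and Gzmb at 179 ± 22.8 RPKM. The ranges of Gzma and Srgn overlapped, with Gzma below Srgn in both SPF libraries (324 against 423 and 200.2 against 220.1 RPKM) and above it in both GF libraries (347 against 261 and 265 against 212 RPKM). A middle tier held Serpinb6b at 47.2 ± 6.66, Prf1 at 31.0 ± 8.05 and Serpinb9 at 19.1 ± 4.50 RPKM. The ranges of these neighbours over the 4 libraries overlapped, although the order held within each library. Gzmm at 9.44 ± 3.01 and Crtam at 3.11 ± 0.515 RPKM stood apart from each other and from Gzmk in every library.

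**Figure D1:**
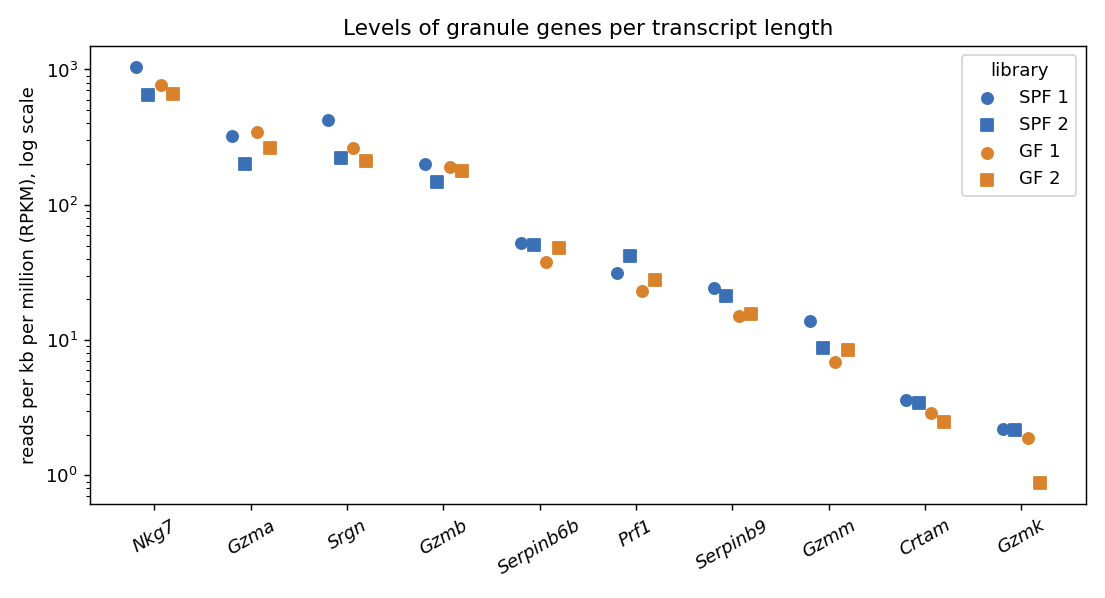
Level of each granule gene per transcript length (RPKM, log axis) in the 4 libraries, ordered by the mean. Circles are replicates 1 and squares replicates 2, blue SPF and orange GF. Nkg7 is above all others and Gzmk is lowest in every library.

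The comparison of recipients asked whether the granule program of the transferred cells differs between hosts with and without a microbiota. Of the 10 genes, 8 had lower fitted values in GF recipients and 2, Gzma and Gzmb, had higher ones, and the median log2 fold change (GF minus SPF) was -0.41, against -0.00 over all tested genes. In 6 of the 10 genes (Prf1, Serpinb9, Serpinb6b, Crtam, Gzmm and Gzmk) each GF library was below each SPF library, and in 0 above. Over all tested genes 16.4% lay below and 16.8% above. The members were chosen with earlier results of these data known, so these values describe a chosen list. Their median transcript was 1581.5 nt long, against 3034 nt over all tested genes. The part of length in the overlap counts was not tested. No member passed the quasi-likelihood test of edgeR with p-values adjusted over all tested genes, a test that 0% of genes passed, and the smallest adjusted p of any member was 0.86. At an unadjusted p under 0.05 there was 1 member, Serpinb9, and 363 genes in all (3.22%). DESeq2, limma-voom and the edgeR exact test called 0 members each, while they called 9 genes (0.0586%), 0 genes (0%) and 9 genes (0.0799%) in all. With 2 libraries a group, the smallest two-sided p of an exact permutation test is 0.33.

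**Figure D2:**
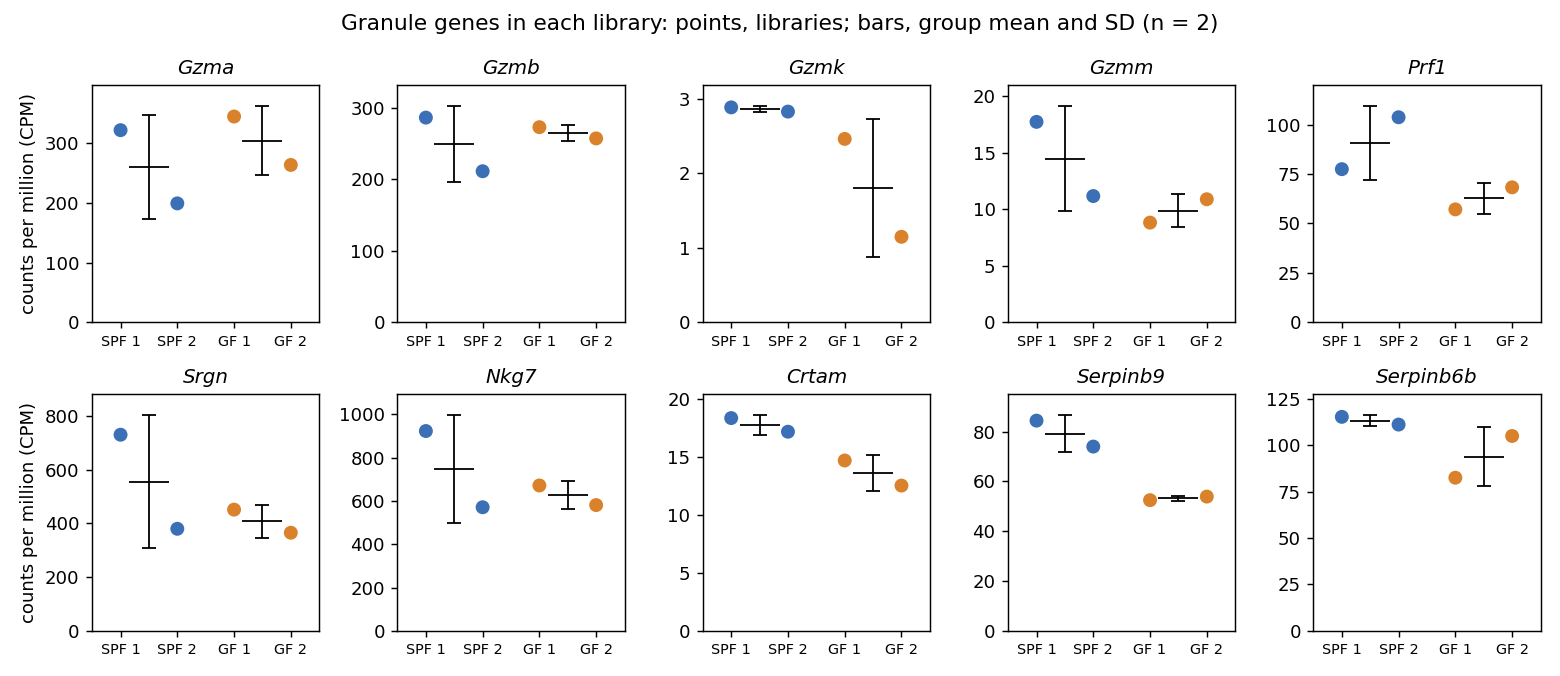
CPM (linear axes from 0) of the 10 granule genes in each library, with SPF in blue and GF in orange, and the group mean and SD (n = 2). The GF points are all below the SPF points for Gzmk, Gzmm, Prf1, Crtam, Serpinb9 and Serpinb6b, and the groups overlap for Gzma, Gzmb, Srgn and Nkg7.

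Gzma encodes a granzyme that cleaves after basic residues. It lies on mm10 chromosome 13 from 113093825 to 113100981 on the minus strand, with 6 exons in its longest coding transcript. It measured 322 and 199 CPM in SPF replicates 1 and 2 and 345 and 264 CPM in GF replicates 1 and 2. Replicate 1 was the higher library in both groups, and the groups overlapped. The SPF mean was 261 ± 86.9 CPM and the GF mean 305 ± 57.5 CPM (SD, n = 2 each), with a log2 fold change of 0.22 (SE 0.31, 95% interval -0.57 to 1.02).

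Gzmb, whose product cleaves after aspartate and activates caspases in the target, lies on chromosome 14 from 56258838 to 56262260 on the minus strand. It measured 286 and 211 CPM in SPF and 273 and 257 CPM in GF, so that both GF values lay between the SPF values. Its log2 fold change was 0.09 (SE 0.24, 95% interval -0.51 to 0.70). The intervals hold differences of up to 1.02 for Gzma and 0.70 for Gzmb on the log2 scale. Without SPF replicate 2 the log2 fold changes turned to -0.09 for Gzma and -0.12 for Gzmb, and without SPF replicate 1 they were 0.61 and 0.33.

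Gzmk lies 70.6 kb from Gzma on the same chromosome and strand and encodes another granzyme of the same cleavage type. Its counts were 33 and 40 in SPF and 36 and 16 in GF, or 2.88, 2.83, 2.46 and 1.15 CPM. The exact Poisson interval, which covers counting error only, was 0.655 to 1.86 CPM in GF replicate 2 and 1.72 to 3.40 CPM in GF replicate 1, which in turn overlaps the intervals of both SPF libraries. The lower GF mean, 1.80 ± 0.929 against 2.85 ± 0.0401 CPM (log2 fold change -0.66, SE 0.51), therefore rests on GF replicate 2, and without that library the log2 fold change was -0.22. Per kilobase, Gzma exceeded Gzmk 146- and 92.4-fold in the SPF libraries and 184- and 302-fold in the GF libraries.

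Gzmm, whose product prefers methionine and leucine, lies on chromosome 10 from 79689020 to 79695261. It measured 17.7 and 11.2 CPM in SPF and 8.81 and 10.9 CPM in GF. The groups did not overlap, but SPF replicate 2 and GF replicate 2 were nearly level, with a difference of -0.04 on the log2 scale, and SPF replicate 1 stood above the other 3 libraries. The fitted log2 fold change was -0.55 (SE 0.34), and it was -0.18 without SPF replicate 1.

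The other granzyme genes of the mouse stand in a row beside Gzmb on chromosome 14. Gzmc, the nearest at 24.2 kb, had 36 and 22 counts in SPF and 56 and 22 in GF, and per kilobase Gzmb exceeded it 44.4- to 102-fold. It was higher in the libraries numbered 1 of both recipients. Gzmd, Gzme, Gzmf, Gzmg and Gzmn had 0 counts in all 4 libraries, which allows up to 0.26 CPM. As the products of this cluster are close relatives, reads that fit more than 1 of the genes may have been lost or split in the counting.

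Prf1 (chromosome 10 from 61297833 to 61304680, 3 exons) encodes perforin, the pore former. It measured 77.5 and 104 CPM in SPF and 57.1 and 68.3 CPM in GF, and the groups did not overlap. The means were 90.6 ± 18.6 and 62.7 ± 7.90 CPM (SD, n = 2 each), with a log2 fold change of -0.53 (SE 0.24, 95% interval -1.15 to 0.09, edgeR adjusted p = 0.86). Leaving out each library in turn gave log2 fold changes of -0.73 (without SPF replicate 1) to -0.31 (without SPF replicate 2). Prf1 was the one member for which replicate 2 was the higher library in both groups, by 0.42 in SPF and 0.26 in GF on the log2 scale.

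Srgn (chromosome 10 from 62493833 to 62527451) encodes serglycin, which binds perforin and granzymes in the granule core. It measured 731 and 380.2 CPM in SPF and 452 and 365 CPM in GF. SPF replicate 1 was far above the other 3 libraries, which lay close together, and the groups overlapped. Its log2 fold change of -0.44 (SE 0.37) became 0.10 without SPF replicate 1 and -0.85 without SPF replicate 2.

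Nkg7 (chromosome 7 from 43437073 to 43438249) encodes a membrane protein of cytotoxic granules that is needed for their release. It measured 923 and 571 CPM in SPF and 672 and 581 CPM in GF, again with SPF replicate 1 highest and the other libraries near each other. The log2 fold change of -0.25 (SE 0.31) became 0.13 without SPF replicate 1. Summed over the 10 genes, the level was 2579 and 1682 CPM in SPF and 1959.6 and 1719 CPM in GF, which follows these abundant members.

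Serpinb9, the inhibitor of granzyme B, had the smallest p of the members. It measured 84.4 and 74.0 CPM in SPF and 52.5 and 53.9 CPM in GF, with close replicates and no overlap. The means were 79.2 ± 7.36 and 53.2 ± 1.01 CPM (SD, n = 2 each), with a log2 fold change of -0.57 (SE 0.20, 95% interval -1.08 to -0.07, edgeR unadjusted p = 0.033, adjusted p = 0.86). The difference was -0.68 between the libraries numbered 1 and -0.46 between those numbered 2, and leaving out each library in turn gave log2 fold changes of -0.67 to -0.47. The gene spans 33003250 to 33017957 of chromosome 13 (plus strand).

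Serpinb6b, which lies 24.2 kb upstream of Serpinb9 and encodes a granzyme A inhibitor of the mouse, measured 115 and 111 CPM in SPF and 82.4 and 105 CPM in GF. The groups did not overlap, but GF replicate 2 was lower than SPF replicate 2 by a log2 difference of only -0.08. The log2 fold change was -0.27 (SE 0.22), and it was -0.11 without GF replicate 1. The neighbour on the other side of Serpinb9, Serpinb9b, had 0 to 6 counts per library.

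Crtam (chromosome 9 from 40969691 to 41004628, minus strand) encodes a surface receptor of activated CD8+ T and NK cells that binds the adhesion molecule CADM1, and is not itself a granule protein. It measured 18.3 and 17.2 CPM in SPF and 14.7 and 12.5 CPM in GF. Replicates were close and the groups did not overlap, with a log2 fold change of -0.38 (SE 0.25, 95% interval -1.02 to 0.25).

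Because members differ in length, each was also fitted after the trend of every library with transcript length was removed. Serpinb9, Prf1, Crtam and Gzmk kept negative values of -0.62, -0.48, -0.54 and -0.47. Gzma moved from 0.22 to 0.58 (SE 0.12) and Gzmb from 0.09 to 0.34 (SE 0.14), while Nkg7, with the shortest transcript of the members at 881 nt, turned from -0.25 to 0.14 (SE 0.13). Gzmm and Srgn moved to -0.23 and -0.24, and Serpinb6b to -0.17. The median of the members was then -0.24, against -0.00 over all tested genes. No member passed in this fit (edgeR adjusted p from 0.68 to 0.80), which called 0% of all genes.

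**Figure D3:**
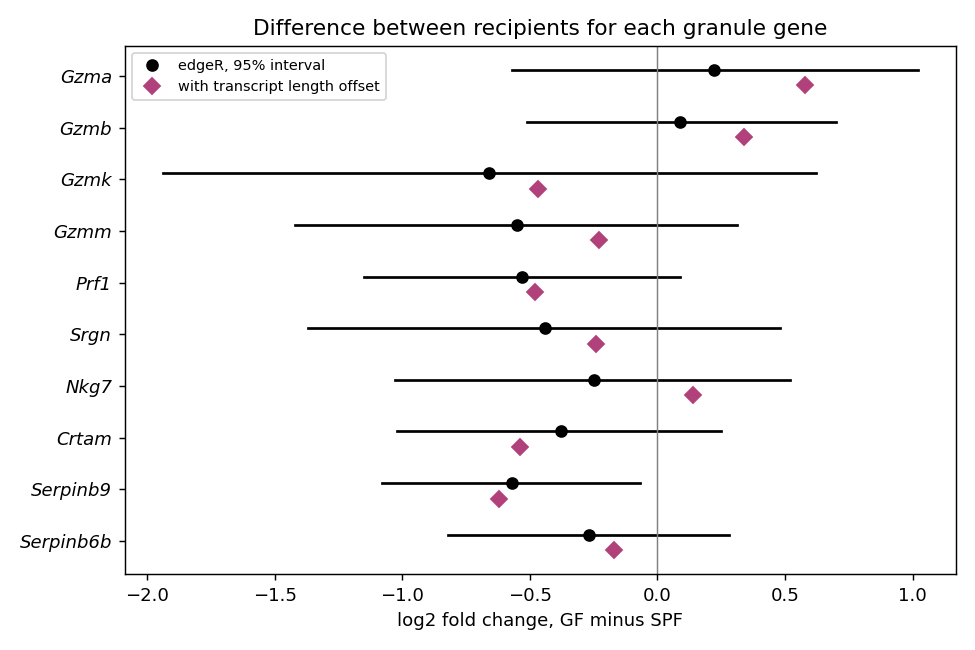
Log2 fold change of GF minus SPF for each granule gene (black points, with 95% intervals from the edgeR fit) and the same with a transcript length offset (diamonds). The interval leaves out 0 for Serpinb9 alone, and Nkg7 crosses 0 between the fits.

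Ratios between members within a library do not depend on how libraries are scaled. Gzmb over Serpinb9, protease over inhibitor, was 8.21 and 6.91 per kilobase in SPF and 12.6 and 11.5 in GF, without overlap. Gzmb over Serpinb6b, which encodes an inhibitor of granzyme A, was 3.80 and 2.91 in SPF and 5.06 and 3.74 in GF, with overlap. Gzmb over Prf1 was 6.37 and 3.51 in SPF and 8.24 and 6.49 in GF. Gzma over Prf1, at 10.3 and 4.77 in SPF and 15.0 and 9.60 in GF, overlapped between the groups. Gzma over Gzmb was 1.62 and 1.36 in SPF and 1.82 and 1.48 in GF, with replicate 1 higher in both. Prf1 over Serpinb9 overlapped as well, at 1.29 and 1.97 in SPF and 1.53 and 1.78 in GF. The transcripts of Gzmb (1436 nt) and Serpinb9 (3472 nt) differ in length. With the length trend removed their fold changes were 0.34 and -0.62, and without that step 0.09 and -0.57. The part of length in the ratio was not tested. These ratios were chosen after the values were seen and carry no test.

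**Figure D4:**
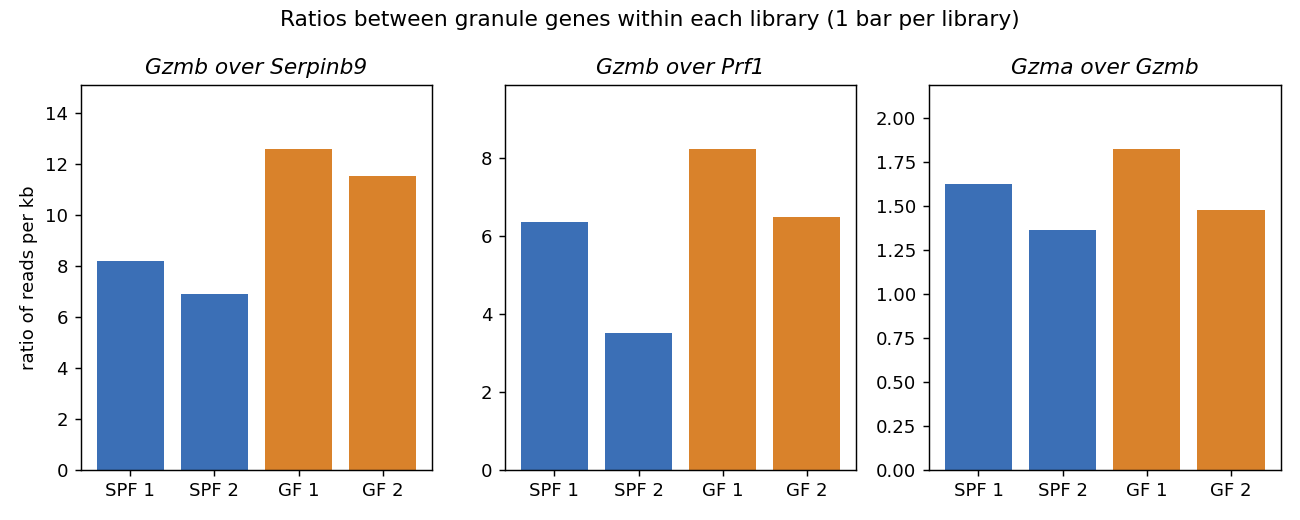
Ratio of reads per kilobase (linear axes from 0) between pairs of granule genes in each library, SPF in blue and GF in orange. Gzmb over Serpinb9 is 11.5 or more in both GF libraries and 8.21 or less in both SPF libraries, Gzmb over Prf1 is separated by a small margin, and Gzma over Gzmb overlaps.

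Genes of the most similar pattern over the 4 libraries were found by the root mean square distance of centred log2 CPM among 8551 genes of mean CPM of at least 10, as a description. For Gzmb they were Dnase1l1, the vesicle SNARE gene Vamp2 and Wbp2 (distances of 0.017, 0.027 and 0.032). For Gzma they were Trp53i13, the progranulin gene Grn and the glutaredoxin gene Glrx (0.043, 0.048 and 0.051), all with replicate 1 above replicate 2 in both groups. For Prf1 they were Zfp882, Apol7e and Nbn (0.029, 0.040 and 0.055), all highest in SPF replicate 2. With 4 points a close match is easily found among many genes.

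Among genes that sort and mature granule proteins, 0 of 14 tested passed the edgeR test in either direction. Of these, 4 had higher and 10 lower fitted values in GF. The median log2 fold change was -0.10, and the GF libraries were below the SPF libraries without overlap for 3 of the 14 and above for 0, beside 16.4% and 16.8% of all tested genes. Ctsc encodes the dipeptidyl peptidase that activates granzymes and measured 150.4 and 129 CPM in SPF and 116 and 127 CPM in GF. Its inhibitor cystatin F (Cst7) measured 132 and 80.7 CPM in SPF and 86.5 and 69.7 CPM in GF, with overlap. Calr, the chaperone calreticulin, which is also found in granules, measured 490.0 and 410.5 CPM against 332 and 353 CPM (log2 fold change -0.39, SE 0.22). M6pr, a mannose 6-phosphate receptor that sorts granzymes, had -0.36 (SE 0.23), and the cysteine protease inhibitor gene Cst3 -0.46 (SE 0.31). With the length trend removed, Cst3 moved to -0.07 and Cst7 from -0.45 to -0.08, while Calr and M6pr were at -0.29 and -0.31. Lyst, the lysosomal trafficking gene mutated in beige mice, has a transcript of 13181 nt and measured 20.8 and 240 CPM in SPF and 74.9 and 290 CPM in GF, so that the libraries numbered 2 were the high ones in both groups.

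Genes that dock and release granules had 9 of 12 tested with higher and 3 with lower fitted values in GF, and 0 passed the edgeR test. The median log2 fold change was 0.26. Over all tested genes 5597 of 11271 had higher fitted values and the median was -0.00. For 3 of the 12 genes the GF libraries were above the SPF libraries without overlap, and for 0 below, beside 16.8% and 16.4% of all tested genes. The 3 were Stx11, a syntaxin needed for granule fusion, at 24.2 and 21.8 CPM in SPF and 35.6 and 29.6 CPM in GF, the Rab27 effector gene Sytl1, at 61.7 and 61.5 against 89.1 and 75.9 CPM, and the small GTPase gene Rab37, at 88.1 and 84.9 against 120 and 98.8 CPM. Their log2 fold changes were 0.50 (SE 0.23), 0.42 (SE 0.20) and 0.34 (SE 0.21). With the length trend removed they were 0.40, 0.53 and 0.38. The vesicle SNARE gene Vamp8 had the opposite sign, at 111 and 60.8 CPM against 67.8 and 49.1 CPM (log2 fold change -0.56, SE 0.36), with overlap. Vamp7 was listed at 0 in all libraries. No length was found for it in the annotation used here, so its 0 need not mean that it is not expressed.

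Among other intracellular serpins and cathepsin inhibitors, 4 of 14 were tested and 0 passed. Serpinb1a, an inhibitor of elastase-like proteases, measured 2.71 and 2.47 CPM in SPF and 6.97 and 6.23 CPM in GF, on 31 and 35 against 102 and 87 counts. Both GF libraries were well above both SPF libraries, in the direction opposite to Serpinb9, with a log2 fold change of 1.35 (SE 0.34, edgeR unadjusted p = 0.0095, adjusted p = 0.86). Serpina3g and Serpina3f had -0.36 (SE 0.31) and -0.43 (SE 0.51), and Serpinb6a 0.05 (SE 0.28). Of the 4 death ligand genes 2 had higher and 2 lower fitted values in GF, and 0 passed. Fasl, the ligand of the other main killing pathway, measured 59.3 and 49.9 CPM in SPF and 34.4 and 39.9 CPM in GF, without overlap (log2 fold change -0.56, SE 0.22). Tnfsf10 (TRAIL), Tnf and Lta had 0.23 (SE 0.28), 0.17 (SE 0.44) and -0.01 (SE 0.33).

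**Figure D5:**
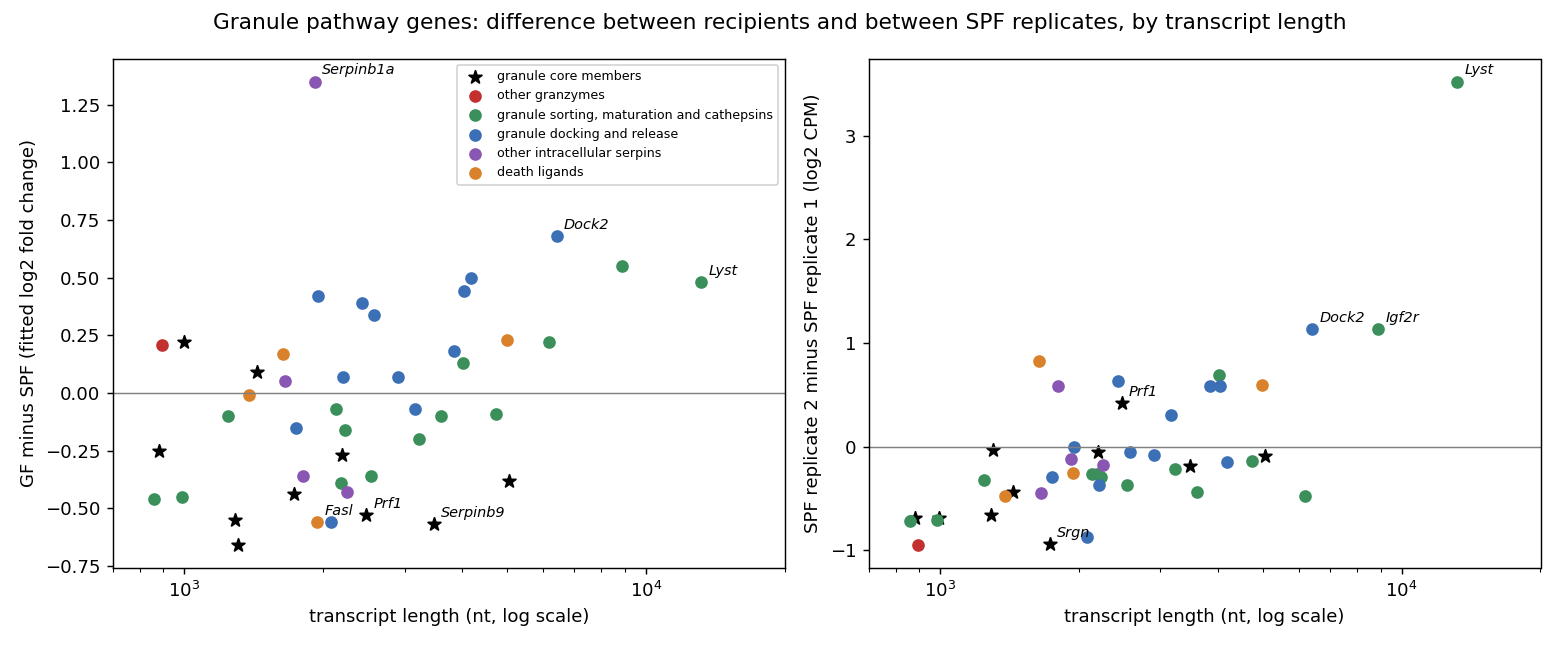
Difference of GF minus SPF (left, fitted log2 fold change) and of SPF replicate 2 minus 1 (right, log2 CPM) against transcript length (log axis) for the tested granule genes (stars) and the genes of the other granule lists (circles). Lyst, Dock2 and Igf2r, with long transcripts, differ most between the SPF replicates, and Serpinb1a has the highest value between recipients.

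The summed level of markers of NK cells, which also carry granzymes and perforin, was lower in GF. Over 9 genes it was 64.9 to 94.8 CPM in SPF and 44.6 to 52.0 CPM in GF, with Klrb1c the most abundant at 39.6 to 50.0 CPM in SPF and 28.6 to 34.4 CPM in GF. All 5 tested NK markers had lower fitted values in GF, beside 50.3% of all tested genes. Of the other listed NK markers, Klra8 and Klra4 were at 0 in all libraries. Ncr1 had 3 and 0 counts in SPF and 2 and 1 in GF, and Klra9 had 3 and 0 against 4 and 1. Klre1 had 86 to 218 counts, Tyrobp 62 to 129, Fcer1g 47 to 137 and Klri2 13 to 40. Summed B cell markers were high in replicates 1 (92.0 CPM for SPF and 110 CPM for GF) and low in replicates 2 (26.1 and 28.3 CPM). Marker sums also differed without overlap for CD4 T cells (99.2 and 109 CPM in SPF, 68.4 and 86.3 CPM in GF, mostly Zbtb7b, with Cd4 at 0 to 6 counts). Zbtb7b (log2 fold change -0.33, SE 0.23) and Cd40lg (-0.7, SE 0.28) had lower fitted values in GF. Foxp3 went the other way on few counts (2 and 7 in SPF, 3 and 17 in GF). The sums for mast cells and basophils did not overlap either (2.78 to 3.90 CPM in SPF, 1.55 to 2.29 CPM in GF, with Mcpt8, Gata2 and Fcer1a at 0). The lower mast cell sum came from Cpa3 (40 and 27 counts in SPF, 13 and 14 in GF), while Ms4a2 (4 and 11 against 7 and 14) and Kit (1 and 1 against 2 and 5) had higher summed counts in GF. The dendritic cell sum was higher in GF (782 and 986 CPM, against 397 and 711 CPM in SPF), nearly all of it Itgax, with Flt3 at 0 to 2 counts. Sums for macrophages and monocytes overlapped at 84.9 to 123 CPM, nearly all of it Itgam (75.2 to 113 CPM), with Fcgr1 at 0. Lyz2 had 48 and 8 counts in SPF and 65 and 0 in GF, while Cd68 had 40 and 91 against 60 and 151. Sums of neutrophil and erythroid markers were at most 0.780 and 1.39 CPM. The part of any of these cells in the values of the granule genes was not tested. In sorted bulk cells, fewer cells with a message and less of it per cell cannot be told apart.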

How the data were processed

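RNA of gBT-I cells was measured in 4 libraries, 2 of SPF and 2 of GF recipients, made from 1 µg of total RNA. The authors deposited raw read counts, whole numbers for each gene without normalization. The submitters' processing notes name mm10 as the build and list CASAVA, TopHat, Picard, featureCounts, Subread and edgeR, with no version or setting, and the annotation was not given in the sources used here. All 4 columns were matched to samples by the labels.

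The GF and SPF counts were compared in edgeR 4.0.16 (R 4.3.3) by the quasi-likelihood test with TMM scaling, the filterByExpr filter and no covariates, and p-values were adjusted by Benjamini-Hochberg over 11271 genes (threshold 0.05). The procedure was tested on simulated counts. The simulated counts varied less between replicates than the data and had no trend with transcript length. Error rates for these data therefore cannot be read from that test. CPM uses the TMM-scaled library size, and marker sums the plain total. Standard errors are the log2 fold change over the square root of F. Log2 CPM has a prior count of 2. RPKM uses the longest coding transcript of GENCODE M21 (basic set, GRCm38), which gave a length for 99.4% of tested genes. No other gene of that set shared exon bases with a member. The length offset removed a lowess trend (span 0.3) per library.

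The members, lists, ratios and motifs were chosen with earlier results of these data known. Named genes were the members, the 4 of each other list with the smallest p, other granzymes with counts, the top marker of lists and the nearest patterns. Ctsc, Lyst, Dock2, Igf2r, Vamp7, Serpinb9b and single other markers were chosen after their values were seen. Alternatives covered scaling, filters, DESeq2 1.42.0, limma 3.58.1 voom, the exact test, a replicate block, length, a looser threshold and each library left out. Figures used matplotlib 3.10.9.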

Additional observations from a re-analysis of the deposited data

How the results depend on the processing

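The edgeR quasi-likelihood test called 0 genes, 0 members and 0 genes of the other granule lists. Other scalings and filters, limma-voom, the length offset and an adjusted p of 0.10 also gave 0 of each. DESeq2 and the edgeR exact test called 9 genes each, none of them a member or a gene of the other lists. With the replicate number as a block, edgeR called 1206 genes (10.7%), among them 2 members, Prf1 (-0.52, adjusted p = 0.036) and Serpinb9 (-0.57, adjusted p = 0.026), and 6 genes of the other lists (Fasl and Vamp8 lower, Dock2, Lyst, Serpinb1a and Igf2r higher). With the block and the length offset together it called 291 genes (2.58%), of which 2 were members, Gzma (0.58, adjusted p = 0.031) and Serpinb9 (-0.61, adjusted p = 0.046), and 2 of the other lists (Dock2 and Serpinb1a). The replicate numbers share no labelled animal, day or batch, and the difference of replicate 2 minus 1 correlated between the groups with Pearson's r = 0.71 across 11271 genes, which are not independent. Leaving out each library in turn gave 0 to 1327 genes (17 without SPF replicate 1 and 1327 without SPF replicate 2), 0 members, and 0 to 4 genes of the other lists. A lone library was then taken to vary like the others.

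Over 110 member values under alternatives with all libraries, 2 changed sign, both of Nkg7 (0.14 with the length offset, with and without the block). With a library left out, 4 of 40 changed sign. The ranges were -0.09 to 0.61 for Gzma, -0.12 to 0.33 for Gzmb, -0.85 to 0.10 for Srgn and -0.57 to 0.13 for Nkg7. The cause was not tested. Depth limits Gzmk and Gzmc, with fewer than 60 counts per library.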
